A study of Mus musculus with 4 samples.

Results

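Cells that carried both keratin and macrophage transcripts numbered 90 of the 4404 cells kept from DLA tumors of Swiss albino mice. They were chosen by measured values: at least 5 UMIs (unique molecular identifiers, each standing for 1 captured transcript) of Krt8 and Krt18 together, and at least 10 UMIs of Lyz2, Tyrobp, Fcer1g and Ctss together. Cells were kept when 200 or more genes were detected and mitochondrial genes held no more than 10% of the UMIs, and no barcode that failed these filters met both limits. The tumors came from DLA cells injected into the peritoneum, and were dissociated for droplet single-cell RNA sequencing. Of the 4 samples, 2 came from control mice (Control 1 and Control 2) while Treated 1 and Treated 2 came from mice that received 30 mg/kg of the HSP90 inhibitor SP11 by mouth over 17 days. Whether the controls were untreated, as labelled, or received vehicle, as in the supplement, is not settled, and the sources used here do not give the number of mice behind a sample. In the order both controls, then both treated samples, which every series of 4 values below follows, the members numbered 7, 2, 66 and 15 and held 61965, 15560, 666011 and 319784 UMIs. A share or level in the controls therefore rests on few cells, and 66 of the 90 members came from 1 sample.

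Krt8 and Krt18 encode the paired intermediate filament proteins of simple epithelia, and are not made by macrophages. Lyz2 encodes lysozyme, Tyrobp and Fcer1g encode signalling adaptors of immune receptors, and Ctss encodes a lysosomal protease of antigen-presenting cells. A barcode with transcripts of both kinds is known to arise when 2 cells enter 1 droplet, when a macrophage takes up another cell, or when RNA released into the suspension is captured with a cell. Which of these applies was not tested, and the measurements below are given side by side.

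The 6 genes of the rule lie at separate places in the mouse genome (GRCm38, mm10), apart from the neighbouring keratins. Krt8 lies on chromosome 15 at 101996698 to 102004482 on the minus strand, and Krt18 at 102028180 to 102032027 on the plus strand. Lyz2 lies on chromosome 10 at 117277331 to 117282321, and Tyrobp on chromosome 7 at 30413760 to 30417585. Fcer1g lies on chromosome 1 at 171229572 to 171234365, and Ctss on chromosome 3 at 95526786 to 95556403.

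Other cells from the same samples serve as references, in 2 classes. Keratin-only cells met the keratin limit alone and numbered 838, 526, 1190 and 567. Myeloid-only cells met the myeloid limit alone and numbered 31, 22, 204 and 155. The remaining 781 cells were under both limits. The labels describe DLA as a lymphoma, but in the keratin-only cells the leukocyte gene Ptprc stood at 0.211 to 5.33 CPM (UMIs of a gene per 1000000 UMIs of the class) in the 4 samples. Summed over 16 other epithelial genes, among them Krt7, Krt19 and Epcam, their level was 1792 to 2813 CPM, most of it from Krt7. The keratin-only cells are therefore called by their keratins here and not lymphoma cells. The myeloid-only cells held 4943 to 6294 CPM over 17 general macrophage genes, against 21.2 to 63.8 CPM in the keratin-only cells.

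The barcode lists of the samples overlapped, and this bears on whether members could be the same cells listed in several samples. The 5332 listed barcodes comprised 4353 distinct sequences, built on 192 distinct starts of 9 bases, and any 2 samples had 60 to 359 barcodes in common. Among the members, 33 of 90 (36.7%) had a barcode that another sample also listed, against 35.4% of all kept cells, and no barcode was a member in 2 samples. The examples below, with the start of 9 bases in capitals, show how 1 sequence stood for cells of unlike content.
Barcode of a member of Treated 2: ACTTTCACAgggaatc
Barcode of a member of Treated 1: AGGGTGATCgtagagg
The first barcode held 101 keratin and 10 myeloid UMIs among 29513 UMIs in Treated 2, 25 keratin and 0 myeloid UMIs among 23544 UMIs in Control 2, and 0 keratin UMIs and 1 myeloid UMI among 643 UMIs in Treated 1. The second held 5 keratin and 10 myeloid UMIs among 2042 UMIs in Treated 1, and it was a keratin-only cell in Control 1 (10673 UMIs) and in Treated 2 (27756 UMIs). For pairs of samples, 47.1% to 83.3% of shared barcodes fell on the same side of the keratin limit in both, beside 44.6% to 81.7% from the samples' own shares alone.

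The values that chose the members are given as a description. Keratin UMIs of the 7 members of Control 1 were 11, 28, 32, 39, 45, 53 and 58, and their myeloid UMIs lay between 10 and 19. The 2 members of Control 2 had 5 and 20 keratin UMIs with 31 and 27 myeloid UMIs. In Treated 1 the keratin UMIs ran from 5 through a median of 30.5 to 93, and the myeloid UMIs from 10 through 17.5 to 56. In Treated 2 the keratin UMIs ran from 6 through 55 to 132, and the myeloid UMIs from 10 through 18 to 46. Most members were far inside the keratin limit, since 9 of 90 had fewer than 10 keratin UMIs, whereas 30 of 90 had 10 to 14 myeloid UMIs. Just inside the myeloid limit stood 15 members with 10 or 11 UMIs, and just outside stood 11 keratin-bearing cells with 8 or 9. Just inside the keratin limit stood 6 members with 5 or 6 keratin UMIs, and just outside stood 10 myeloid-bearing cells with 3 or 4.

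**Figure D1:**
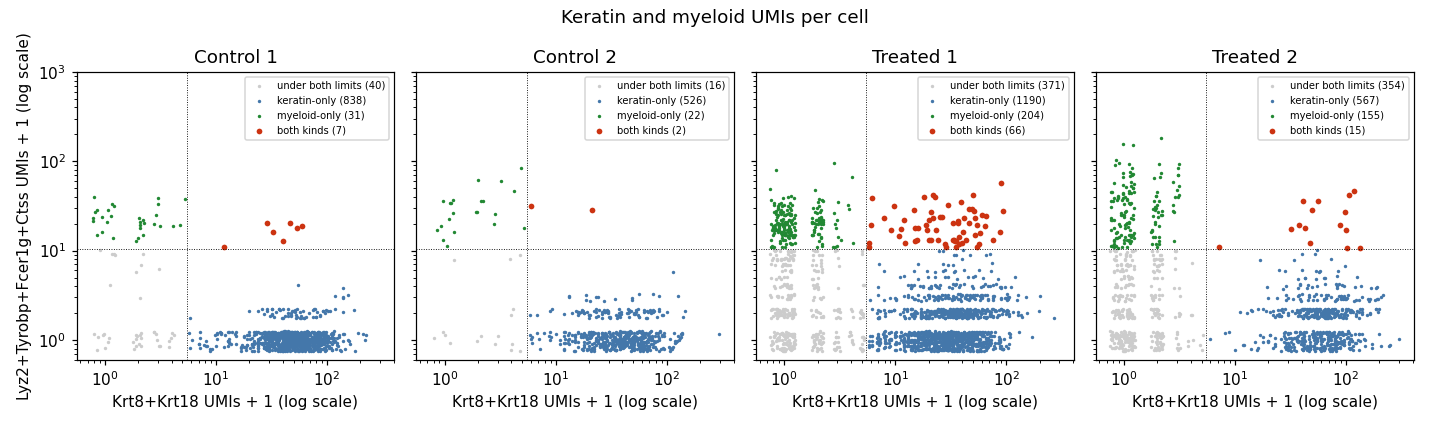
Keratin UMIs (Krt8 and Krt18) against myeloid UMIs (Lyz2, Tyrobp, Fcer1g and Ctss) of each kept cell in the 4 samples, both plotted as UMIs + 1 on log axes with a small random shift to separate points; dotted lines are the limits. Red points are the 7, 2, 66 and 15 cells with both kinds, which lie above a thin zone of keratin-bearing cells with 5 to 9 myeloid UMIs.

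Between the keratin-only cells and the members, the counts thinned out without a clear gap in the treated samples. Of all keratin-bearing cells, 2186 had 0 myeloid UMIs, 633 had 1, 261 had 2 to 4, 41 had 5 to 9 and 90 had 10 or more. In Control 1, no keratin-bearing cell had 5 to 9 myeloid UMIs, and the 7 members stood apart. In Control 2, 1 cell did. In Treated 1, 26 cells had 5 to 9, and in Treated 2, 14 cells did.

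The shares of members were compared between the conditions, since the treatment label was not used to choose them. Of all kept cells, members made up 0.764%, 0.353%, 3.60% and 1.37%. The 95% exact (Clopper-Pearson) intervals, which hold counting error alone, were 0.308% to 1.57% and 0.0428% to 1.27% for the controls, and 2.80% to 4.56% and 0.772% to 2.26% for the treated samples. Both treated samples stood above both controls, with a mean of 2.49% ± 1.58 (SD, n = 2) against 0.559% ± 0.291 (SD, n = 2). The 2-sided exact permutation test gave p = 0.333, and a design of 2 against 2 can give no smaller value. The difference of 1.93 percentage points fell to 0.816 without Treated 1 and to 0.808 with a myeloid limit of 20 UMIs, at which Control 1 had 0 members, and rose to 3.19 with a limit of 5.

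Among the cells that met 1 limit, the order of the samples held over keratin-bearing cells and changed over myeloid-bearing cells. Of the keratin-bearing cells, members made up 0.828%, 0.379%, 5.25% and 2.58%, so the treated samples were again higher (exact permutation p = 0.333, the smallest the design allows). Of the myeloid-bearing cells, they made up 18.4%, 8.33%, 24.4% and 8.82%, with intervals of 7.74% to 34.3%, 1.03% to 27.0%, 19.4% to 30.02% and 5.02% to 14.1%. On this base the groups overlapped, with means of 13.4% ± 7.13 and 16.6% ± 11.04 (SD, n = 2 each, exact permutation p = 0.667). Without Control 2 the difference changed from 3.26 to -1.79 percentage points, and without Treated 1 to -4.55. Myeloid-bearing cells themselves numbered 38 of 916, 24 of 566, 270 of 1831 and 170 of 1091 kept cells. They were thus a larger share of kept cells in both treated samples than in both controls, as members were. Within each group, the sample with the higher share of members had the slightly lower share of myeloid-bearing cells. What part the share of myeloid-bearing cells had in the result was not tested.

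Members carried far more RNA than myeloid-only cells and about as much as keratin-only cells of the treated samples. Total UMIs per member were 3003, 5259, 8086, 8732, 9063, 13624 and 14198 in Control 1, and 5246 and 10314 in Control 2. In Treated 1 they ran from 2042 through a median of 9552 to 21702, and in Treated 2 from 2333 through 24238 to 30754. The median of the keratin-only cells was 10959.5, 17220.5, 8854.5 and 19792, and that of the myeloid-only cells 1790.0, 2552, 1165 and 2078. The members' median was thus 0.797, 0.452, 1.08 and 1.22 times that of the keratin-only cells. Set against the sum of both reference medians, it was 0.685, 0.393, 0.953 and 1.11 times that sum. Of the 90 members, 79 had more UMIs than the deepest myeloid-only cell of their sample, and 49 had more than the median keratin-only cell. Because the limits are counts of UMIs, deeper cells met them more readily, and depth is not independent of the rule.

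**Figure D2:**
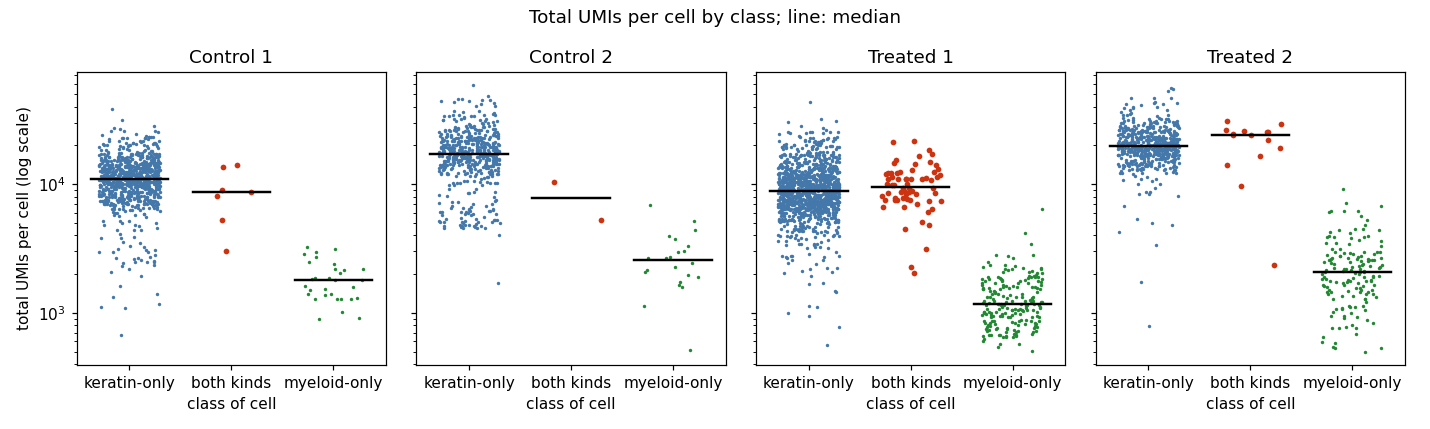
Total UMIs per cell on a log axis for keratin-only cells, cells with both kinds and myeloid-only cells of each sample; each point is a cell, horizontal lines are medians and the sideways spread is random. The cells with both kinds have medians of 8732, 7780.0, 9552 and 24238 UMIs, close to the keratin-only cells in the treated samples and below them in the controls.

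Detected genes followed the same order. Members had a median of 2549, 2071, 2854.5 and 4887 genes, against 639 to 1126.5 in the myeloid-only cells and 2557.5 to 4172 in the keratin-only cells. The mitochondrial share of UMIs had a median of 1.47%, 1.17%, 1.57% and 2.42% in members, which lay nearer to the 1.503%, 1.67%, 1.55% and 2.11% of keratin-only cells than to the 0.696%, 0.625%, 0.885% and 1.09% of myeloid-only cells.

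Genes that the rule did not use were present from both sides in the same cells. From the non-member cells, the 50 genes with the largest fold toward the keratin-only class and the 50 toward the myeloid-only class were taken, without the 6 genes of the rule. The keratin-side genes included Epcam, Krt19, Rrm2 and Cenpf, and the myeloid-side genes included Ccl6, Cd74, Srgn and Cyba. In Treated 1 the median member held 31 of the keratin-side genes (10 to 45) and 23 of the myeloid-side genes (10 to 41). Keratin-only cells of that sample held a median of 32 and 3, and myeloid-only cells 1 and 24. In Treated 2 the medians of the members were 45 and 29, in Control 1 they were 26 and 27, and the 2 members of Control 2 held 5 and 27 keratin-side genes and 30 and 33 myeloid-side genes, listed from low to high. So about as many myeloid-side genes were detected in a member as in a myeloid-only cell, with keratin-side genes as well. These are counts of detected genes at unequal depth, since members held far more UMIs than myeloid-only cells. Both sets were ranked between classes that the rule defined, so finding both in members follows in part from the rule.

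Summed over the 16 epithelial genes outside the rule, members of the treated samples were near the keratin-only level. They had 2240 and 2108 CPM, beside 2391 and 2178 CPM in keratin-only cells. These sums rest on few genes, since 12, 14, 7 and 10 of the 16 had 0 UMIs in members. Krt7, a keratin of glandular epithelia, had a UMI in all 90 members, Krt19 in 84 and the adhesion molecule gene Epcam in 74. The level of Krt7 in members was 1485, 643, 1374 and 1288 CPM, beside 1801, 1113, 1493 and 1333 CPM in keratin-only cells and 402, 148, 182 and 65.9 CPM in myeloid-only cells. Epcam stood at 233 CPM in members of Treated 1 and 235 CPM in those of Treated 2, beside 221 and 193 CPM in keratin-only cells. It was at 0 UMIs in the 2 members of Control 2, whose 15560 UMIs in all give little depth for it.

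Myeloid genes outside the rule stood between both classes. Ccl6, a chemokine of macrophages, had a UMI in 80 members, Cd74, the invariant chain of MHC class II, in 79, and the neutrophil-attracting chemokine gene Cxcl2 in 75. Wfdc17, a secreted inhibitor-like protein of activated macrophages, was found in 54 members, and the lipid carrier gene Apoe in 49. The level of Ccl6 was 807, 2378, 532 and 247 CPM in members, against 7105, 6979, 4229 and 3779.8 CPM in myeloid-only cells and 4.38, 8.67, 19.02 and 11.5 CPM in keratin-only cells. The level of Apoe in members was 323, 257, 201 and 141 CPM, against 1239, 427, 1849 and 1150.1 CPM in myeloid-only cells. The leukocyte gene Ptprc was found in 33 members, Cd68, a lysosomal protein of macrophages, in 33 and the receptor gene Csf1r in 19.

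The summed profile of the members of each sample was then fitted as a mix of the summed keratin-only and myeloid-only profiles of the same sample, without the 6 genes of the rule. This is a description, because the rule chose the members by genes of both classes. The myeloid share of the fit was 14.9%, 34.3%, 13.1% and 4.26%. The value for Treated 2 depended on the hemoglobin genes, and was 12.7% without them and 7.48% by maximum likelihood. It was 1.76% without the cells that Scrublet called doublets. In the other samples the fit without hemoglobin and maximum likelihood, added after the data were seen, gave 11.9% to 34.3%. Of the genes with at least 20 UMIs, observed or fitted, 98.97% of 484, 97.2% of 144, 99.6% of 4119 and 98.04% of 2505 lay within 2-fold of the mix. Against the keratin-only profile alone, 95.2%, 90.3%, 95.4% and 97.0% did.

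**Figure D3:**
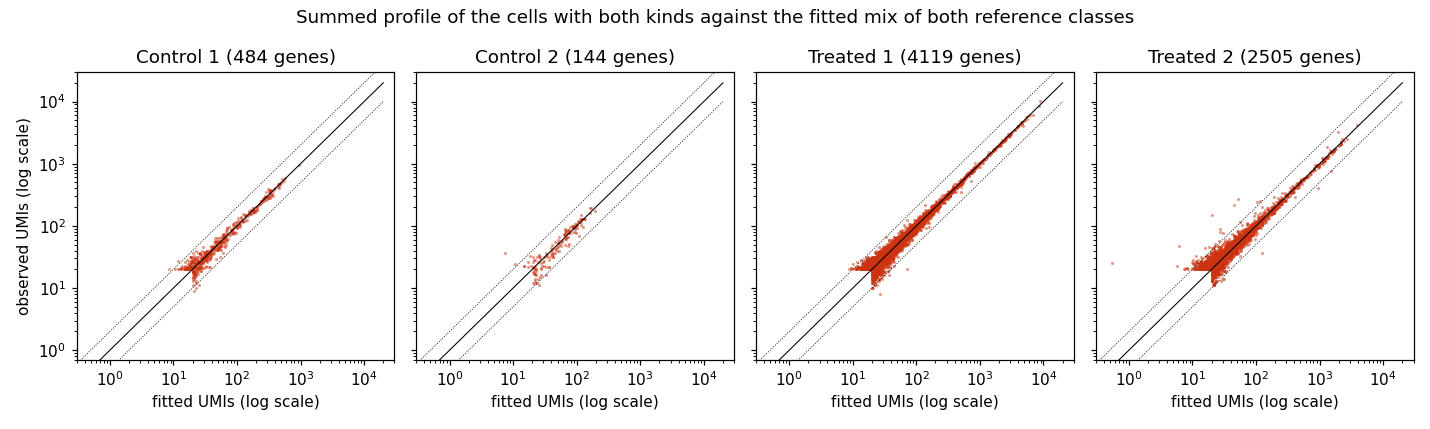
Observed UMIs of each gene summed over the cells with both kinds against the UMIs fitted as a mix of the keratin-only and myeloid-only profiles, on log axes, for genes with at least 20 UMIs observed or fitted; the solid line is equality and dotted lines are 2-fold. Of 4119 genes in Treated 1, 4103 lie within the dotted lines, while Treated 2 has a group of genes above them.

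Over the samples with at least 5 members (Control 1, Treated 1 and Treated 2), a gene was counted as departing when it was at least 2-fold over the mix, or at most 0.5 of it, in each of them. Of 2824 genes with at least 50 UMIs, observed or fitted, over these samples, 0 were higher (0% of those compared) and 1 was lower (0.0354%). The lower gene was Igkc, the immunoglobulin kappa constant region of B cells, with 0, 0, 20 and 2 UMIs in the members where the mix gave 0.0111, 0.00123, 72.4 and 9.40. In Control 1 the mix gave almost no Igkc, so the departure rests on the treated samples. Some of the B-cell transcripts of the treated samples sat in myeloid-only and keratin-only cells, at 471 and 53.4 CPM of Igkc in Treated 1 against 30.0 CPM in members. No p-value is attached, since this was no test over samples. In Control 1, 484 genes had at least 20 UMIs, observed or fitted, so for most genes the depth there was low. Without hemoglobin genes in the fit, 0 genes were higher and 3 lower, of 2864. A gene that departs in a single sample does not enter these counts, so they do not show that members match the mix gene by gene.

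Within single samples, the departing genes were few and differed. In Treated 1, 7 genes were at least 2-fold over the mix and 9 at most 0.5 of it, out of 4119. Among them F10, coagulation factor X, had 67 UMIs where 33.0 were fitted, while Spp1, the macrophage-secreted osteopontin, had 8 where 26.6 were fitted and the scavenger receptor gene Msr1 had 10 where 20.3 were fitted. In Treated 2, 44 genes were at least 2-fold over the mix and 5 at most 0.5 of it, out of 2505. They included the neutrophil genes S100a8 with 217 UMIs against 44.9 fitted, S100a9 with 271 against 52.7, and Retnlg with 150 against 20.01. They also included the MHC class II genes H2-Ab1 with 90 UMIs against 27.3 fitted and H2-Aa with 79 against 27.1. Without the hemoglobin genes, 15 genes of Treated 2 were at least 2-fold over the mix, S100a8 and Retnlg among them at 2.05 and 2.57 times, and no MHC class II gene did. At most 0.5 of the mix were then 23 genes in Treated 2 and 21 in Treated 1, so the departures of Treated 2 turned from mostly higher to mostly lower.

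By gene list, 4 macrophage lists (general, Wfdc17 and Ccl6 type, inflammatory and MHC class II) lay between 0.718 and 1.07 times the mix outside Treated 2. The resident and monocyte lists ran wider. The 17 general macrophage genes summed to 1.01, 0.916 and 0.916 times the mix in Control 1, Control 2 and Treated 1, and to 1.81 times in Treated 2. The 8 genes of the Wfdc17 and Ccl6 type summed to 0.855, 0.799, 1.07 and 1.66 times, and the inflammatory genes, such as Ccl2, Arg1, Tnf and Cxcl2, to 0.953, 0.901, 0.922 and 1.73 times. The MHC class II genes summed to 1.03, 1.01, 0.718 and 2.54 times. Genes of resident macrophages summed to 1.23, 0.966, 0.804 and 1.38 times, and the monocyte genes to 0.795, 0.612, 1.03 and 1.52 times. In Treated 2 these directions turned when the hemoglobin genes were left out of the fit, to 0.598 for the general macrophage genes, 0.526 for the Wfdc17 and Ccl6 type and 0.858 for MHC class II, so none of them is a stable departure. The 30 genes of phagocytosis and lysosome, such as Npc2, Ctsz and Ctsd, summed to 0.906, 1.05, 1.02 and 1.07 times the mix, and to 0.802 times in Treated 2 without hemoglobin. Of such genes with at least 20 UMIs, observed or fitted, 6 of 8, 0 of 1, 14 of 14 and 10 of 10 lay within 2-fold of it, with 2 under it in Control 1 and 1 over it in Control 2. Npc2, a lysosomal cholesterol carrier, had 32, 14, 311 and 104 UMIs where 32.7, 16.3, 312 and 102 were fitted. Keratin-only cells carried the phagocytosis and lysosome list as well, at 1924, 1882, 1977 and 2090 CPM. Members held 3179, 6555, 3075 and 2480 CPM of it and myeloid-only cells 12290, 12250, 9914 and 9325 CPM. Its ratios to the mix therefore cover both parts and do not single out the myeloid part.

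**Figure D4:**
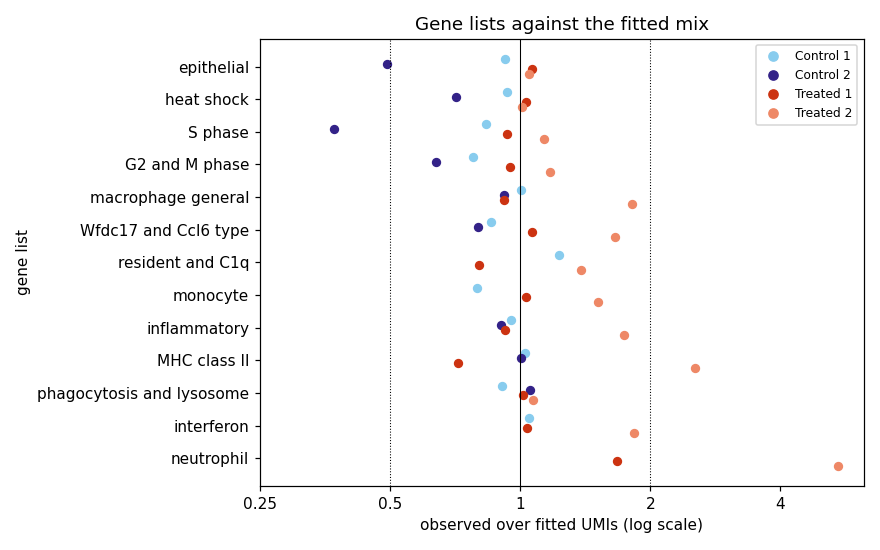
Observed over fitted UMIs of 13 gene lists in the cells with both kinds, 1 point per sample, on a log axis; points with fewer than 20 UMIs observed and fitted are left out, the solid line marks 1 and dotted lines 0.5 and 2. Treated 1 lies between 0.718 and 1.68 for every list, and the macrophage lists of Treated 2, at 1.38 to 2.54, depend on the hemoglobin genes in the fit.

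The kind of myeloid profile in each member was read from genes outside the rule. More UMIs of Wfdc17 and Ccl6 than of Fn1 and Vcan, genes of monocytes and freshly arrived macrophages, were found in 6 of 7, 2 of 2, 46 of 66 and 10 of 15 members. The reverse held in 0, 0, 14 and 4 members, and 8 of all 90 were equal. Among myeloid-only cells, 272 of 412 had more of Wfdc17 and Ccl6 and 102 had more of Fn1 and Vcan. Scaled to 100 UMIs of the 4 myeloid genes of the rule, the Wfdc17 and Ccl6 type stood at 92.7, 128, 59.7 and 53.1 UMIs in members and at 105, 134, 50.4 and 50.2 in myeloid-only cells. On the same scale the monocyte genes stood at 22.7, 20.7, 31.4 and 33.8 in members and at 27.5, 28.3, 27.3 and 35.1 in myeloid-only cells. Genes of resident macrophages, such as C1qa, Apoe and Mrc1, stood at 32.7, 18.97, 22.7 and 16.02 against 25.4, 16.3, 25.5 and 17.4. Members thus carried genes of more than 1 macrophage kind, as the myeloid-only cells did. With separate profiles for the Wfdc17 and Ccl6 kind and for the other myeloid-only cells, maximum likelihood gave the former 73.9% of the myeloid part in Treated 1 and 75.1% in Treated 2, beside 65.8% and 64.8% of the myeloid-only UMIs. Least squares on the same profiles gave the former all of it in Treated 1 and none in Treated 2, so this split is not stable.

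In 10 members the neutrophil genes S100a8 and S100a9, which encode the subunits of calprotectin, reached 10 UMIs together. These were 4 of Treated 1, with 18, 43, 53 and 63 UMIs, and 6 of Treated 2, with 30, 32, 44, 45, 127 and 196 UMIs. Among the myeloid-only cells of these samples, which held fewer UMIs in all, 5 of 204 and 26 of 155 reached this limit. Over 10 neutrophil genes, the members summed to 1.68 times the mix in Treated 1 and 5.44 times in Treated 2, or 1.54 and 2.06 times without hemoglobin in the fit. Tyrobp and Fcer1g are also made by neutrophils, so the genes of the rule do not set macrophages apart from neutrophils. No Lyz2 UMI was found in 9 of the 90 members, as 1, 0, 4 and 4, and in 32 of 412 myeloid-only cells.

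Single members were also fitted by maximum likelihood, which gives each cell a keratin part and a myeloid part. Hemoglobin genes stayed in this fit. In the treated samples the 7 erythroid genes stood at 71488 and 90665 CPM in myeloid-only cells, against 10309.8 and 4765 CPM in keratin-only cells. Whether the parts of single cells depend on these genes was not tested. The myeloid part had a median of 1093, 2688, 962 and 1426 UMIs per member. Myeloid-only cells had 1790.0, 2552, 1165 and 2078 UMIs in all, and the myeloid part of 80 of 90 members lay within the range of the myeloid-only totals of its sample. That range runs from the lowest to the highest total, such as 507 to 6465 UMIs in Treated 1. The myeloid limit of the rule acts on both classes, so a part inside the range follows in part from the rule. The keratin part had a median of 7231, 5092, 8418 and 22899 UMIs. Between the 5th and 95th percentile of the keratin-only totals lay the keratin part of 5 of 7, 1 of 2, 59 of 66 and 13 of 15 members. The myeloid part made up over 5% of the UMIs of 77 of 90 members. Among keratin-only cells this held for 1 of 838, 0 of 526, 148 of 1190 and 40 of 567. In the treated samples the same fit thus also gave a myeloid part to cells under the myeloid limit of the rule.

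Cycling genes, which the rule did not use, were compared with both reference classes. The rule requires keratin UMIs in members and few of them in myeloid-only cells, and keratin-only cells held more cycling transcripts than myeloid-only cells. Members above the myeloid-only cells therefore follow in part from the rule. The 42 S phase genes made up 0.198%, 0.0900%, 0.233% and 0.322% of the UMIs of members, 0.268%, 0.296%, 0.279% and 0.306% of those of keratin-only cells, and 0.0576%, 0.0558%, 0.0671% and 0.0582% of those of myeloid-only cells. Members were above the myeloid-only cells in 4 of 4 samples, by 0.151 ± 0.0944 percentage points (SD, n = 4, 2-sided exact permutation test of paired samples, p = 0.125, the smallest p that 4 samples allow). Their level minus that of the keratin-only cells was -0.0691, -0.206, -0.0455 and 0.0160 points, below in 3 of 4 samples and above in Treated 2 (exact permutation p = 0.25). The 52 genes of G2 and M phase gave the same order, with 0.434%, 0.334%, 0.535% and 0.708% in members, 0.629%, 0.661%, 0.631% and 0.652% in keratin-only cells and 0.134%, 0.0723%, 0.135% and 0.0939% in myeloid-only cells. Members were again above the myeloid-only cells in 4 of 4 samples (exact permutation p = 0.125) and below the keratin-only cells in 3 of 4 (exact permutation p = 0.25). Neither comparison could pass 0.05 with 4 samples.

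Since members and myeloid-only cells differed in depth, each cell was thinned to 1000 UMIs. At least 2 UMIs of S phase genes then remained in 42.9%, 0%, 51.5% and 66.7% of members, 68.0%, 73.0%, 70.5% and 73.1% of keratin-only cells and 6.90%, 4.76%, 16.9% and 14.1% of myeloid-only cells. At least 2 UMIs of G2 and M phase genes remained in 57.1%, 50%, 92.4% and 86.7% of members, 90.1%, 92.6%, 90.1% and 89.9% of keratin-only cells and 37.9%, 14.3%, 33.1% and 24.4% of myeloid-only cells. Here Treated 1 stood above its keratin-only cells and Treated 2 below, the opposite of the unthinned levels. Without thinning, the S phase share was 100% of members in every sample, and 24.1% to 52.4% of myeloid-only cells. Thinning left out 97 myeloid-only cells, 5 keratin-only cells and no member. The 0% of Control 2 is 0 of 2 cells and allows any share. Against the mix, S phase genes summed to 0.833, 0.370, 0.932 and 1.13 times and G2 and M phase genes to 0.776, 0.640, 0.949 and 1.17 times.

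Xist, the RNA that silences 1 X chromosome in female cells, separated the reference classes and is not part of the rule. It had a UMI in 0.716% to 2.47% of keratin-only cells and in 9.68% to 27.3% of myeloid-only cells of the 4 samples, although the latter had fewer UMIs in all. Among members it was found in 0 of 7, 0 of 2, 12 of 66 and 1 of 15. In Treated 1 these 12 UMIs compare with 11.8 given by the mix, and the level of 18.0 CPM lay between 2.32 CPM in keratin-only and 119 CPM in myeloid-only cells. In Treated 2, 1 UMI compares with 1.56 given by the mix, and its 3.13 CPM lay nearer to the 1.35 CPM of keratin-only than to the 87.8 CPM of myeloid-only cells. Without hemoglobin in the fit, the list of Xist and Tsix stood at 0.861 and 0.228 times the mix in Treated 1 and Treated 2. In the controls, 0 UMIs were seen where the mix gave 0.525 and 0.709, and exact intervals reached 40.96% and 84.2% of cells, so that an absence there could not be detected at this depth.

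Heat shock genes, which HSP90 inhibitors are known to act on, were close to the keratin-only level in members of the treated samples. The 13 genes summed to 11119, 8483, 12854 and 13178 CPM in members, 12945, 13403, 13695 and 13970.4 CPM in keratin-only cells and 5516, 4926, 4796 and 3966 CPM in myeloid-only cells. Hsp90ab1, the constitutive cytosolic HSP90, had a UMI in all 90 members, and its UMIs were 0.870, 0.680, 1.02 and 0.962 times the mix. The inducible form Hsp90aa1 stood at 1549, 1735, 2293 and 2570.5 CPM in members, the controls below both treated samples. Keratin-only cells had 2023, 2364, 2327 and 2714 CPM, where the groups overlapped. A test of genes between treated and control members was planned only where each sample had at least 5 members, and Control 2 had 2, so these are levels with no test. Fewer cells with a transcript and less of it per cell cannot be told apart in such sums.

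The 7 erythroid genes, hemoglobin genes among them, summed to 145, 129, 15941 and 3812 CPM in members, and at 268, 178, 10309.8 and 4765 CPM in keratin-only cells. The high values were in the treated samples for every class, with 71488 and 90665 CPM in their myeloid-only cells. Of stromal, T and NK, mast and platelet genes the members held at most 16 UMIs per list in any sample. The controls had 0 UMIs of T and NK genes in members.

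The myeloid genes of the rule were also measured as background in cells that should lack them. Keratin-only cells had at least 1 such UMI in 8.11%, 19.2%, 40.7% and 49.7% of cells, at median depths of 10959.5, 17220.5, 8854.5 and 19792 UMIs, and 0.0793, 0.127, 0.727 and 0.406 such UMIs per 10000. Members had 17.8, 37.3, 19.6 and 10.54 per 10000, and myeloid-only cells 121, 113, 158 and 149. In the opposite direction, myeloid-only cells had at least 1 keratin UMI in 54.8%, 50%, 31.9% and 31.6% of cells, at 5.24, 3.61, 3.11 and 1.73 keratin UMIs per 10000. Members had 42.9, 16.1, 32.5 and 32.6 keratin UMIs per 10000. The myeloid background was thus higher in the treated samples and the keratin background in the controls. That members exceed it follows in part from the rule.

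Keratin was not limited to macrophage-bearing cells. Of T cells, with at least 3 UMIs of Cd3d, Cd3e, Cd3g and Trac, 5 of 12 in Treated 1 and 3 of 52 in Treated 2 had at least 5 keratin UMIs, beside 24.4% and 8.82% of myeloid-bearing cells. For cells with at least 10 UMIs of S100a8 and S100a9 the counts were 28 of 55 and 22 of 86, and for cells with at least 10% hemoglobin UMIs they were 26 of 123 and 2 of 74. Members were not taken out of these counts. In Treated 1 and Treated 2 they made up 1 and 0 of the T cells with keratin. They were 4 and 6 of the S100a8 and S100a9 cells with keratin, and 3 and 0 of the hemoglobin cells with keratin. The share was higher in Treated 1 than in Treated 2 in each of these gates, a difference between single samples with no test. The S100a8 and S100a9 cells with keratin had a median of 10290.0 and 19182 UMIs, against 958 and 932 in those without. The neutrophil limit is also met by keratin-only cells, which held 142 and 122 CPM of neutrophil genes in these samples. In the controls these gates held at most 6 cells each.

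**Figure D5:**
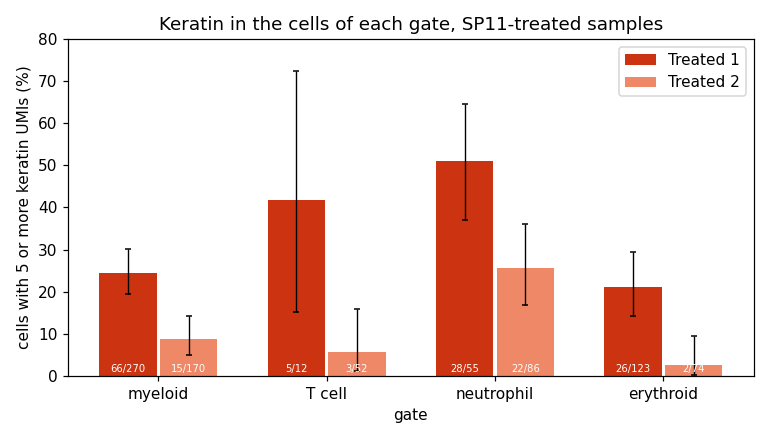
Share of cells with at least 5 keratin UMIs among the cells of each gate in Treated 1 (dark) and Treated 2 (light), with 95% exact Clopper-Pearson intervals; numbers in the bars are cells with keratin over cells in the gate. The share is higher in Treated 1 in each gate, at 24.4% against 8.82% for myeloid and 50.9% against 25.6% for neutrophil cells.

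Scrublet, which scores each cell by its likeness to simulated pairs of cells, called 1 of 7, 0 of 2, 6 of 66 and 7 of 15 members doublets, where it called 5.13%, 8.13%, 0.928% and 1.47% of all kept cells. Its automatic score limit was unstable: another random seed called 88.9% of Control 1 and 1 of 66 members of Treated 1. The rank of the scores moved less, and the median member stood at the 85.9th, 33.4th, 87.5th and 97.0th percentile of its sample. Without the called cells, 76 members remained, as 6, 2, 60 and 8.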

How the data were processed

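Droplet single-cell RNA sequencing was analysed for 4 samples, 2 per group. The deposited values are counts of UMIs for each gene in each barcode, not normalized, made by the authors with Cell Ranger 7.1.0, per the file headers. The submitters' processing notes name mm10, while the paper's methods name hg38 for the single-cell work. The paper's methods call the samples of each group independent sets, and its supplement biological replicates. The number of mice behind a sample is not given in the sources used here, so p-values measure the spread between these samples. Kept cells held 9739676, 9574906, 12999822 and 13024964 UMIs, the controls before the treated samples.

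The members and gene lists were chosen with earlier results of these data known. Genes named are those of the rule, the given markers, the gene lists and the genes that depart from the mix; F10, Spp1, Msr1, H2-Ab1, H2-Aa, S100a8, S100a9 and Retnlg within single samples are list genes named after their values were seen. Levels are UMIs of a gene summed over a class, per 1000000 UMIs of that class (CPM). Mixes were fitted by non-negative least squares and tested on simulated mixes. Shares were compared by 2-sided exact permutation tests, with exact intervals at 95% (scipy 1.17.1). Doublets were called with Scrublet (scanpy 1.11.5, seed 1) and kept. The genes of treated and control members were not tested, because Control 2 had 2 members. Gene positions came from the GENCODE annotation of GRCm38. Alternatives covered the limits, called doublets, stricter reference classes, the fit, the replicate block and each sample left out. Results of one cell gate and its gene list are not reported here.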

Additional observations from a re-analysis of the deposited data

How the results depend on the processing

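Of 86 alternative values, 78 were counted as unchanged, though some moved by over 1.5 times. Differences had to keep their direction, counts of genes to stay within 1.5 times, and myeloid shares within the spread between samples. Some were bound to be unchanged: the replicate block leaves each difference as it is. With 2 myeloid profiles, the controls had too few cells of 1 kind and kept their first fit. With myeloid limits of 20 and 5 UMIs, the difference in shares was 0.808 and 3.19 points over kept cells (reported 1.93), 1.36 and 5.46 over keratin-bearing cells (3.31) and 8.41 and 5.20 over myeloid-bearing cells (3.26), the last also 5.44 with a minimum of 500 genes and 1.57 without called doublets. The difference in the share of myeloid-bearing cells that were members (3.26 percentage points, treated minus control) reversed to -6.20 with a keratin limit of 3 UMIs, and ran from -4.55 to 11.1 when each sample was left out, with -1.79 without Control 2. Leave-one-out values were 0.816 to 3.05 points over all kept cells and 1.97 to 4.65 over keratin-bearing cells. Genes higher than the mix rose from 0 to 1 at a fold of 1.5 (Mcmbp) and ran from 0 to 1 when samples were left out (Arhgef3, without Treated 1). Genes lower than the mix rose from 1 to 2 with 2 myeloid profiles (Cd79a, Igkc) and to 3 without hemoglobin genes (Cd79a, Fabp5, Igkc). They stayed at 1 when samples were left out, though without Treated 1 that gene was Hbb-bt. The myeloid share of Treated 2 moved from 4.26% to 12.7% without hemoglobin genes, 7.48% by maximum likelihood and 1.76% without called doublets. With the replicate number as a block, the 3 differences in shares were the same and p was 0.5, the smallest the blocked exact permutation test allows; the labels do not say what a number shares, and deviations of same-numbered samples correlated at 0.265 over 7315 genes. The block, maximum likelihood and the fit without hemoglobin were added after the data were seen. The alternatives planned for a test of treated against control members, DESeq2 among them, were not run, because that test was not fitted. The 9 control members limit every statement on controls.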
